A study of Mus musculus with 42 samples.

Results

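Medullary thymic epithelial cells (mTEC) sorted for low MHC class II were compared between Ski KO and Control mice, in 11 of the 42 RNA libraries of the series. The comparison took every library with the surface phenotype Epcam+CD45-UEA+Ly51loMHCIIlo and the genotype KO (n = 7) or Control (n = 4). A further Control library of this phenotype was left out because it held 82 counts, under a minimum of 100000, and 2 libraries of another control genotype, Ski flox Control, were not compared. KO is a deletion of Ski in thymic epithelial cells. The labels give no Cre driver, allele, strain, age or sex for either genotype. They do not say whether libraries of a group came from separate mice, so p-values measure the spread between libraries, which may in part be technical. Each library was made from 200 sorted cells, and fewer cells of a type cannot be told apart from less RNA per cell.

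SKI is a transcriptional corepressor that binds SMAD proteins and recruits the NCOR and histone deacetylase machinery, which limits the response of a cell to TGF-beta and BMP ligands. The MHCII-low fraction of the medulla is a mixture. It holds immature cells that go on to express AIRE, the regulator that lets mTEC display antigens of other tissues, and mimetic cells that resemble tuft, microfold, keratinocyte, neuroendocrine and other peripheral cell types. Tuft-like cells are chemosensory, express the taste G protein subunit GNAT3 and bitter taste receptors (Tas2r genes), and secrete IL-25.

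The 11 libraries held 3217251 to 6098199 counts. Control replicates 1 and 3 and KO replicates 1 to 4 had library numbers of an early set, and Control replicates 4 and 5 and KO replicates 5 to 7 those of a late set. No label defines these sets. They are a cut made here in an unbroken run of library numbers, after the libraries of Control replicate 3, and may not be separate batches. Detected genes numbered 21447, 16175, 20089 and 17337 in Control replicates 1, 3, 4 and 5, and from 13945 to 19108 in KO libraries. The means were 18762 ± 2429 (SD, n = 4) and 16488 ± 1911 (SD, n = 7). The difference did not pass a two-sided exact permutation test (p = 0.121, or 0.273 after Benjamini-Hochberg adjustment over 5 single-value tests).

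Of the 11 libraries, 5 resembled another subset more than their own. Each profile was correlated with the mean Control profile of the 3 subsets across 9406 genes, leaving a library out of its own mean. This describes libraries across genes, which are not independent replicates. The MHCII-low and MHCII-high means rested on 4 Control libraries each and the cTEC mean on 5, and a Control library's own mean on fewer. A mean of fewer libraries is noisier, which may lower r. For KO libraries the MHCII-low mean included Control replicate 3. Control replicate 3 (r of 0.727 against 0.643), KO replicate 3 (0.688 against 0.593) and KO replicate 4 (0.777 against 0.714) correlated better with MHCII-high than with MHCII-low mTEC. KO replicates 6 (0.755 against 0.740) and 7 (0.797 against 0.730) correlated better with cortical epithelium (cTEC). Control replicate 1 (0.757 against 0.751) and KO replicate 2 (0.663 against 0.655) were nearer to MHCII-low than to MHCII-high mTEC by small margins only. For gene lists, the median log2 fold change over all 11 libraries comes first. It is followed by that without the 5 libraries, a fit chosen after seeing the data. Because the 5 were picked by likeness to Control profiles, that rule may itself lessen a KO difference. The lowest and highest medians from leaving out 1 library in turn come last.

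**Figure D1:**
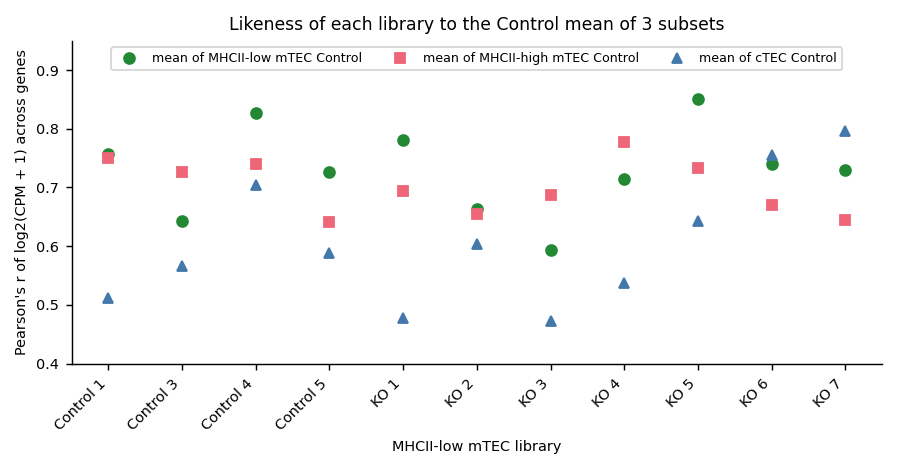
Pearson's r of log2(CPM + 1) between each MHCII-low mTEC library (x axis) and the mean Control profile of MHCII-low mTEC, MHCII-high mTEC and cTEC (marker shapes in the legend). The MHCII-high value is the highest in Control 3, KO 3 and KO 4, and the cTEC value in KO 6 and KO 7.

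Ski itself checks the labels. In CPM (counts scaled to the size of each library), it stood at 25.0, 44.5, 21.2 and 7.81 in Control replicates 1, 3, 4 and 5. KO replicates 1 to 7 stood at 16.9, 9.60, 1.87, 1.22, 6.03, 9.40 and 0.519 CPM. Of the 7 KO libraries, 4 lay below every Control library. KO replicates 1, 2 and 6 lay above Control replicate 5 and below the other 3 Control libraries. The means were 24.6 ± 15.1 CPM (SD, n = 4) and 6.51 ± 5.94 CPM (SD, n = 7). The log2 fold change was -1.92 (SE 1.12, edgeR adjusted p = 0.796). On log2(CPM + 1) a two-sided exact permutation test gave p = 0.0242, which became 0.121 over the 5 single-value tests. That p was 0.0167 without Control replicate 5 and 0.0667 without any 1 of Control replicates 1, 3 and 4. Counts were made over the whole gene (chr4:155154075-155222592, GRCm38) and the labels do not name the deleted part, so reads from outside it would still be counted. Without the 5 libraries nearer to another subset the log2 fold change was -0.74.

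The 3 markers of the subset were present and overlapped between the genotypes. Krt5, a keratin of basal and immature medullary cells, stood at 354, 35.0, 172 and 87.2 CPM in Control and from 45.5 to 487 CPM in KO libraries. Its log2 fold change was 0.32 (SE 0.87, edgeR adjusted p = 1), and -1.13 in the late set alone. Gnat3 stood at 2279, 144, 2556 and 1684 CPM in Control libraries. The 7 KO libraries stood at 973, 0, 152, 288, 1294, 1226 and 199.6 CPM. All KO libraries lay below 3 of the 4 Control libraries, while Control replicate 3 lay among the KO libraries. The log2 fold change was -1.50 (SE 1.43, edgeR adjusted p = 1), or -1.53 without the 5 libraries nearer to another subset. A two-sided exact permutation test on log2(CPM + 1) gave a difference of -2.44 (p = 0.164). Leaving out 1 library in turn, the difference ranged from -3.41 without Control replicate 3 (exact p = 0.0167, the smallest that 3 against 7 libraries can give) to -1.16 without KO replicate 2 (exact p = 0.257), and the highest p was 0.35 without Control replicate 4. Gp2, a microfold cell glycoprotein, stood at 799.9, 845, 2018 and 107 CPM in Control and from 10.03 to 1458 CPM in KO libraries (log2 fold change -0.67, SE 1.28, edgeR adjusted p = 1).

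**Figure D2:**
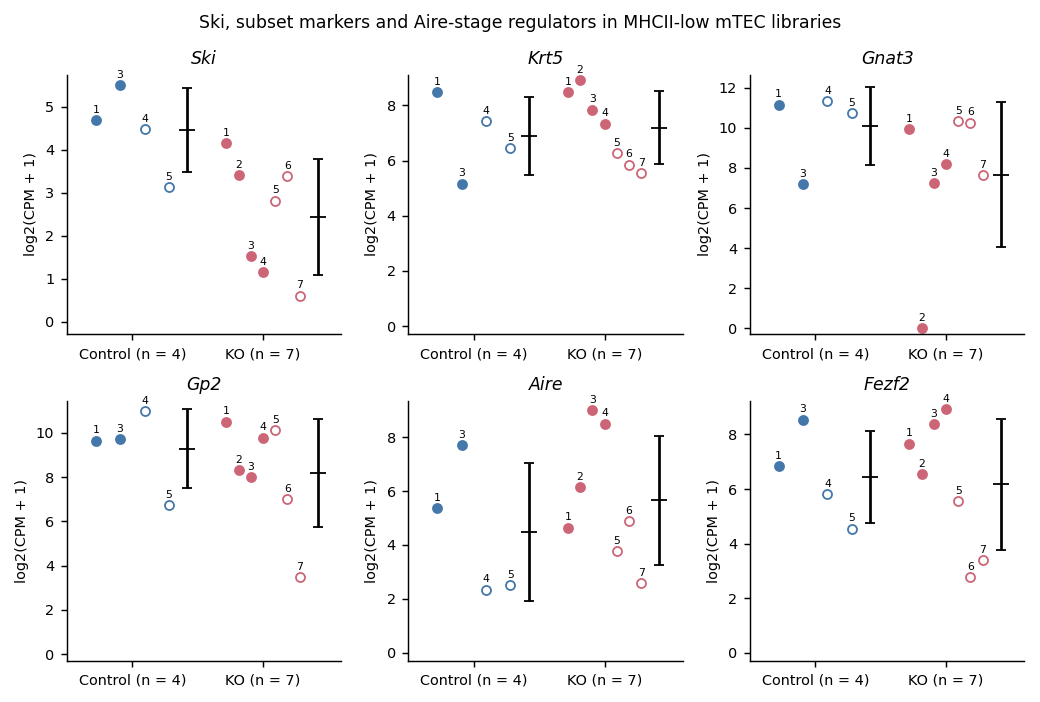
Levels of Ski, 3 subset markers, Aire and Fezf2 as log2(CPM + 1) in each library, numbered by replicate, with filled points for the early and open points for the late set. Bars show the mean and SD of each group, and in all 6 panels the groups overlap.

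No gene passed edgeR's quasi-likelihood test with Benjamini-Hochberg adjustment at 0.05 among 23040 genes tested (0% called in either direction). At an unadjusted p under 0.05, 584 genes were higher in KO libraries (2.53%) and 1055 lower (4.58%), together 7.11%. Positive fold changes made up 48% of the genes and negative ones 48.1%. Spread between libraries was wide, with a biological coefficient of variation of 1.40 over the 40 libraries of the fit and 1.14 over the 11 compared. In counts simulated from these libraries the same test recovered 23% of 100 genes changed 4-fold and 50% of 100 changed 16-fold, with 4 false calls. Genes were changed only above a minimum mean level, and recovery was not split by level above it. These shares may therefore not hold for genes of few counts. Counts were drawn independently for each gene, so shifts shared by many genes of a library were not simulated. DESeq2 called 132 genes higher (0.573%) and 97 lower (0.421%), and limma voom with quality weights called 2 higher (0.00868%) and 52 lower (0.226%). Only 13 of the 229 DESeq2 calls and 21 of the 54 limma calls had a count in both groups.

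Of the genes higher in KO libraries with a median of at least 10 CPM there, the 8 of smallest p are named. They were Jpt2, Gsdmd, Eed, Strn4, Gtpbp1, Lhpp, Ccdc50 and Ap4s1. None passed, and each had an edgeR adjusted p of 0.639. With DESeq2, Jpt2 (adjusted p = 0.0136), Gsdmd (0.0171), Eed (0.0119) and Ccdc50 (0.049) did pass. Jpt2 stood at 47.5, 40.6, 115 and 64.8 CPM in Control libraries. Values in KO replicates 1 to 7 were 186, 148, 177, 366, 191, 106 and 192 CPM. All but KO replicate 6 lay above every Control library, and the log2 fold change was 1.54 (SE 0.41). Strn4, a striatin scaffold of phosphatase complexes, stood at 36.5, 45.1, 32.7 and 25.0 CPM in Control libraries. In KO replicates 1 to 7 it stood at 91.3, 157, 95.0, 84.8, 60.5, 50.3 and 54.1 CPM, so the groups did not overlap (log2 fold change 1.28, SE 0.40). Gsdmd encodes gasdermin D, the pore-forming protein of pyroptosis. It stood at 29.1, 98.4, 83.5 and 70.3 CPM in Control libraries. KO replicates 1 to 7 stood at 71.0, 242, 354, 181, 72.6, 143 and 215 CPM, and only KO replicates 1 and 5 lay within the Control range (log2 fold change 1.38, SE 0.39).

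Eed, the histone-binding subunit of Polycomb repressive complex 2, had a Control range of 29.9 to 71.4 CPM and a KO range of 70.1 to 197 CPM, in which KO replicate 1 alone lay below the highest Control library (log2 fold change 1.16, SE 0.34). Ap4s1, a subunit of the AP-4 vesicle adaptor, stood from 21.6 to 45.3 CPM in Control and from 51.9 to 112 CPM in KO libraries without overlap (log2 fold change 1.04, SE 0.34). The log2 fold changes of these 8 genes lay between 1.001 for Ccdc50 and 1.70 for Gtpbp1, a GTP-binding protein. Without the 5 libraries nearer to another subset, Gtpbp1 stood at a log2 fold change of -0.11.

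Of the genes lower in KO libraries, the 8 of smallest p were Tas2r121, Ndrg4, Tas2r140, Mfap3l, Ttc28, Slc25a36, Cnr1 and Nagk, again with an edgeR adjusted p of 0.639. With limma voom, Tas2r121 (adjusted p = 1.09e-06), Tas2r140 (3.50e-05) and Mfap3l (0.0373) did pass, and with DESeq2 Ndrg4 (0.0261) did. Tas2r121 and Tas2r140 had no count in any KO library. Slc25a36, a mitochondrial pyrimidine nucleotide carrier, stood at 52.4, 68.4, 71.6 and 120.2 CPM in Control libraries. The 7 KO libraries stood at 40.6, 26.4, 13.1, 30.6, 40.2, 19.0 and 48.3 CPM, with no overlap (log2 fold change -1.32, SE 0.46). Ndrg4 stood at 18.6, 16.5, 6.68 and 4.94 CPM in Control libraries and at no more than 0.615 CPM in KO libraries, of which 5 had no count (log2 fold change -6.51, SE 1.94). Mfap3l stood at 8.82, 36.1, 7.64 and 23.9 CPM in Control libraries and at no more than 1.01 CPM in KO libraries (log2 fold change -6.41, SE 2.01). Cnr1, a cannabinoid receptor, had counts in Control replicates 1 and 4, at 25.7 and 46.3 CPM, and in KO replicate 5, at 0.838 CPM. Nagk, an N-acetylglucosamine kinase, stood at 118 to 266 CPM in Control and 89.4 to 199 CPM in KO libraries (log2 fold change -0.67, SE 0.25).

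**Figure D3:**
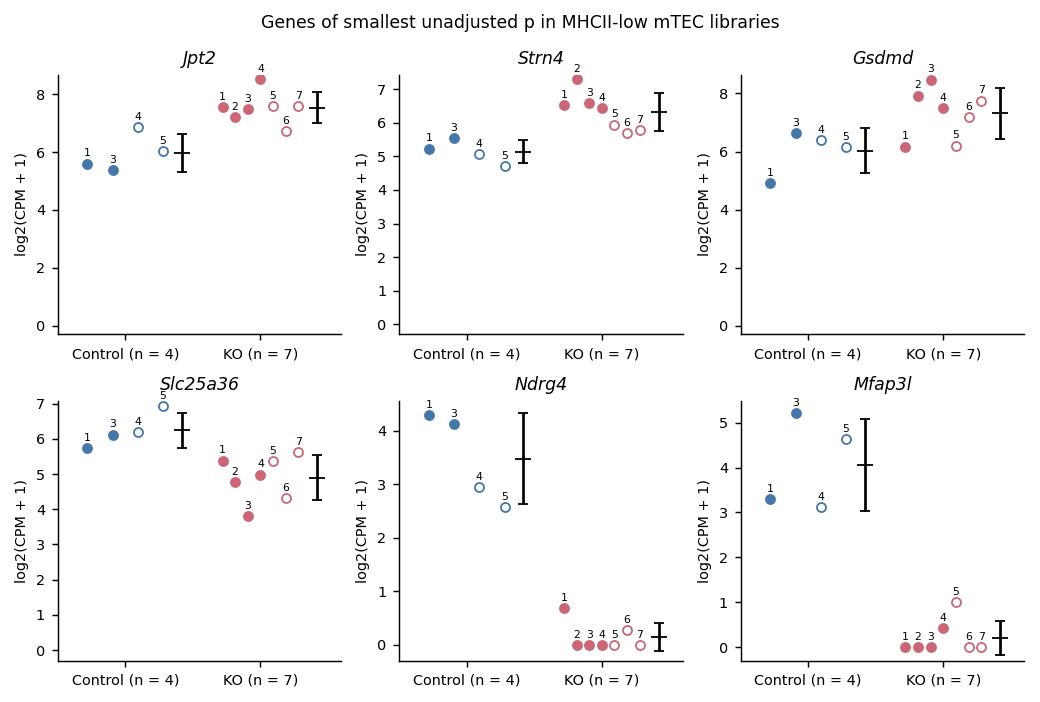
Levels of 6 genes of small unadjusted p as log2(CPM + 1) in each library, numbered by replicate, with filled points for the early and open points for the late set and bars for the mean and SD. Strn4, Slc25a36, Ndrg4 and Mfap3l show no overlap between groups, and none of the 6 passed edgeR's adjusted test.

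The groups did not overlap for 14 genes higher in KO libraries (0.0608% of those tested) and 61 lower (0.265%). The smallest p that a two-sided exact permutation test of 7 against 4 libraries can give is 0.00606. Complete separation in either direction would come up in that fraction of relabellings of a gene without ties. Both shares together lie below it, so lack of overlap in a named gene is a description only. All 14 of the higher genes were protein-coding. Of the 61 lower genes, 41 were protein-coding and 12 had no count in any KO library. Among them, chosen after its values were seen, Nlk, the Nemo-like kinase, stood at 72.5, 76.3, 95.7 and 98.9 CPM in Control and from 1.87 to 52.3 CPM in KO libraries (log2 fold change -1.66, SE 0.94, edgeR adjusted p = 0.777). Pcgf3, a subunit of Polycomb repressive complex 1, also chosen after its values were seen, stood at 91.4, 51.2, 41.0 and 53.9 CPM in Control and from 1.66 to 33.2 CPM in KO libraries (log2 fold change -1.65, SE 0.75, edgeR adjusted p = 0.666).

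DESeq2 and limma shared 6 calls, named after their values were seen, all lower in KO and all without a count in any KO library: Nppc, Neurod1, Vwa5b2, Cyp3a11, Grxcr2 and Cyp2c68. Nppc, which encodes C-type natriuretic peptide, stood at 3.92, 2.48, 15.0 and 7.03 CPM in Control libraries. With the KO group placed at 3 counts over its summed libraries it was at least 82.9-fold lower, and at least 52.1-fold lower without Control replicate 4. The other 5 genes had no count in at least 1 Control library. Cyp3a11, a hepatic cytochrome P450, stood at 180.3 CPM in Control replicate 5, without which its least fold moved from 545 to 26.0. Neurod1, a neuroendocrine transcription factor, stood at 104 CPM in Control replicate 1, without which its least fold moved from 310.1 to 10.2.

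Tuft cell transcripts varied widely between libraries of both genotypes. Over 23 tuft genes the summed level was 9445, 2349.9, 10845 and 9201 CPM in Control libraries. Sums in KO replicates 1 to 7 were 13551, 2346, 314, 3489.5, 9952, 3751 and 4054 CPM. KO replicates 1 and 5 lay with the high Control libraries, and Control replicate 3 lay with the low KO libraries. Of the 23 genes, 22 had a negative fold change, beside 48.1% of all genes, and 0 had an edgeR unadjusted p under 0.05, beside 7.11% of all genes. The list had a median of -0.36 (-0.0019 without the 5 libraries, and between -0.84 without KO replicate 1 and -0.18 without KO replicate 3), and 10 of the 23 were positive without the 5 libraries. The median was 0.31 with detected genes as a covariate. Il25, the tuft cell cytokine, stood at 191, 43.8, 176 and 155 CPM in Control and from 0 to 244 CPM in KO libraries (log2 fold change -0.99, SE 1.54).

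Bitter taste receptor transcripts were lower on average in KO libraries of both sets. Of 35 annotated Tas2r genes, 29 were tested, 27 of them on chromosome 6, where similar genes lie close together and reads may be divided between them. Their summed level was 1227, 520.5, 1106 and 434 CPM in Control libraries. In KO replicates 1 to 7 it was 189, 8.51, 0, 48.3, 781, 421 and 83.0 CPM. KO replicate 5 alone lay within the Control range, and the other KO libraries lay below it. All 29 tested members had a negative fold change, beside 48.1% of all genes. At an edgeR unadjusted p under 0.05, 3 were lower, beside 4.58% of all genes, and none passed edgeR's adjusted test. Tas2r121 and Tas2r140 did pass with limma voom. The family had a median of -2.07 (-1.66 without the 5 libraries, and between -3.16 without KO replicate 5 and -1.56 without Control replicate 1), with 2 of 29 positive without the 5. The median was -5.13 in the early set and -0.85 in the late set, and the difference between sets was not tested.

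Set against the tuft sum, bitter receptors came to 13.0%, 22.1%, 10.2% and 4.72% in Control libraries. In KO replicates 1 to 7 they came to 1.40%, 0.363%, 0%, 1.38%, 7.85%, 11.2% and 2.05%. KO replicate 1 had the highest tuft sum of the 11 libraries and a bitter receptor share below every Control library. KO replicates 5 and 6 lay within the Control range.

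**Figure D4:**
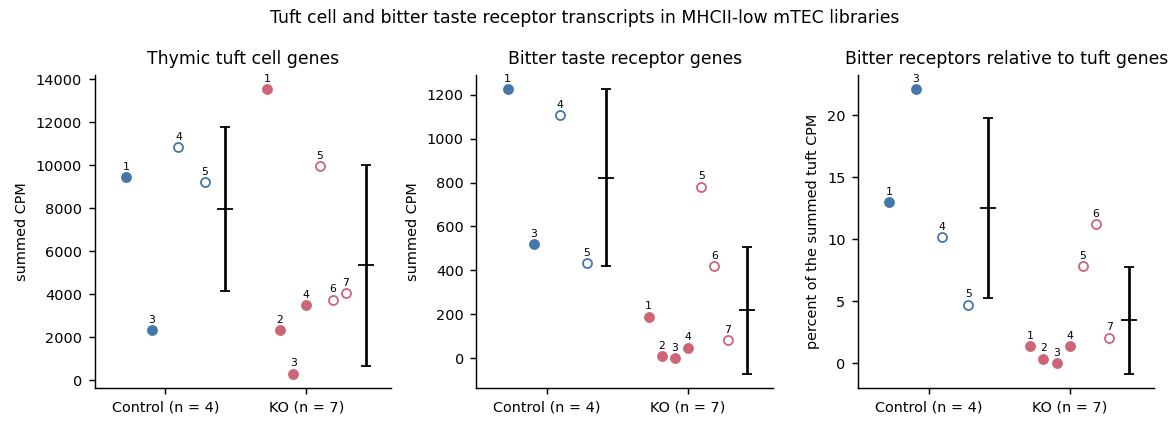
Summed CPM of tuft genes, summed CPM of bitter taste receptor genes and the second as a percent of the first in each library, numbered by replicate, with filled points for the early and open points for the late set and bars for the mean and SD. The 4 early KO libraries lie at or below 1.40%, under the lowest Control library at 4.72%.

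Tas2r121 stood at 38.5, 16.7, 3.34 and 8.07 CPM in Control libraries and was not counted in the KO libraries, so that it was at least 194-fold lower against 3 counts over the KO group and at least 109-fold lower without Control replicate 1. Tas2r140 was counted only in Control replicates 1, 4 and 5. Tas2r105 stood at 241, 204, 197 and 55.9 CPM in Control libraries. KO replicates 1 to 7 stood at 7.69, 0, 0, 0, 63.3, 126 and 13.1 CPM, where KO replicates 5 and 6 exceeded Control replicate 5 (log2 fold change -2.54, SE 1.55, edgeR adjusted p = 0.846). Tas2r108 stood at 94.0, 47.9, 141 and 48.4 CPM in Control and from 0 to 117 CPM in KO libraries (log2 fold change -1.36, SE 1.65). Tas2r123 stood at 0.781 to 65.6 CPM in Control and 0 to 8.71 CPM in KO libraries (log2 fold change -3.38, SE 1.87, edgeR adjusted p = 0.763).

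Because these genes were low in the same libraries, their promoters were searched for the octamer ATGCAAAT, a sequence bound by POU factors, the family of POU2F3, which specifies tuft cells. RefSeq windows (GRCm38.p6, 250 bases before to 50 after each start) were present for 25 of the 29 tested genes. On either strand 5 of the 25 held the octamer (20%), against 532 of all 27025 genes with a window (1.97%) and 0 of 19 tuft genes. Similar receptor genes lie close together on chromosome 6, so the 25 do not count as independent beside all genes. A match describes letters only, and its bearing on the KO difference was not tested. The 80 bases around it follow for the 3 most abundant of the 5 genes, with capitals for the octamer, which lies on the strand opposite to the gene and so reads ATTTGCAT.
Tas2r108 (chr6:40493410-40493489, plus strand): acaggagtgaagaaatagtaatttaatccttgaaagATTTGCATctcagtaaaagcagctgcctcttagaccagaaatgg
Tas2r118 (chr6:23970141-23970220, minus strand): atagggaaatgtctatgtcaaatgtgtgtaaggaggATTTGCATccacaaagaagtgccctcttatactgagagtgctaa
Tas2r137 (chr6:40491010-40491089, plus strand): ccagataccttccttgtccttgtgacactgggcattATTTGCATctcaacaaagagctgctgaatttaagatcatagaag

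Of these, Tas2r118 stood at 126, 36.8, 62.0 and 50.2 CPM in Control libraries and at 0, 0, 0, 0, 72.7, 76.2 and 0 CPM in KO replicates 1 to 7. Pou2f3, named after its values were seen, stood at 111, 30.7, 158 and 171 CPM in Control libraries and at 173, 99.0, 28.4, 76.6, 188, 18.6 and 59.5 CPM in KO replicates 1 to 7. KO replicate 1, with no count of Tas2r118, held Pou2f3 at 173 CPM, close to the highest Control library at 171 CPM. The KO library with the highest Pou2f3, at 188 CPM, held Tas2r118 at 72.7 CPM. That with the lowest Pou2f3, at 18.6 CPM, held Tas2r118 at 76.2 CPM. Whether the levels of Pou2f3 and Tas2r118 were related was not tested.

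Aire was highest in the libraries that resembled MHCII-high mTEC. It stood at 39.9, 207, 4.06 and 4.68 CPM in Control libraries. The 7 KO libraries stood at 24.0, 70.0, 509, 362, 12.7, 28.6 and 5.02 CPM. Control replicate 3 and KO replicates 3 and 4 were highest, beside 442 to 782 CPM in MHCII-high Control libraries. The log2 fold change was 1.18 (SE 1.23, edgeR adjusted p = 1) and became -1.19 without KO replicates 3 and 4. It was 3.15 without Control replicate 3, and 0.79 without all 3 of these libraries. Fezf2, another regulator of self-antigen expression, had a Control range of 22.4 to 373 CPM and a KO range of 5.85 to 486 CPM (log2 fold change 0.25, SE 1.14). Hdc, the histidine decarboxylase, stood at 37.5, 429, 6.92 and 19.0 CPM in Control libraries and at 1759.9 and 1160.1 CPM in KO replicates 3 and 4, and its log2 fold change of 1.89 (SE 1.29) became -1.15 without them and 1.39 when Control replicate 3 was left out too. Foxn1, the master regulator of thymic epithelium, stood at 0 to 26.9 CPM in Control and 0 to 99.2 CPM in KO libraries (log2 fold change 1.56, SE 1.51), with a log2 fold change of -2.95 in the late set. Of 16 maturation genes 13 had a positive fold change, beside 48% of all genes, and 0 an unadjusted p under 0.05. They had a median of 0.67 (0.59 without the 5 libraries, and between 0.44 without Control replicate 1 and 1.23 without Control replicate 3), and 0.22 without KO replicates 3, 4, 6 and 7. Ccl21a, a chemokine of immature mTEC, could not be tested, with 14 counts over the 11 libraries.

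Antigen presentation genes had fold changes of both signs, and none passed. Of 14 MHC class II genes 13 were positive, or 7 without the 5 libraries, with a median of 0.43 (0.025 without the 5 libraries, and between 0.26 without Control replicate 5 and 0.49 without KO replicate 1). Their median was -0.31 without KO replicates 3, 4, 6 and 7 and 0.55 without Control replicate 3 and KO replicates 3 and 4. Among 14 MHC class I presentation genes 6 were positive, or 11 without the 5 libraries, with a median of -0.0056 (0.11 without the 5 libraries, and between -0.052 without KO replicate 7 and 0.11 without KO replicate 3). Ciita, the transactivator of MHC class II, stood at 27.2, 31.8, 31.5 and 53.9 CPM in Control libraries. Values in KO replicates 1 to 7 were 49.2, 87.5, 81.3, 85.8, 42.2, 93.8 and 105 CPM, with KO replicates 1 and 5 below Control replicate 5 (log2 fold change 1.11, SE 0.48, edgeR adjusted p = 0.648). Cd80, a costimulatory ligand gene, stood at 4.16 to 20.8 CPM in Control and 13.3 to 69.1 CPM in KO libraries (log2 fold change 1.04, edgeR adjusted p = 1). Icosl, the ICOS ligand gene, had a log2 fold change of 1.19 (SE 0.88). Of 22 genes of RANK, CD40 and NF-kappaB signalling, which drives mTEC maturation, 17 had a positive fold change, with a median of 0.24 (0.28 without the 5 libraries, and between 0.15 without KO replicate 7 and 0.62 without Control replicate 3). Traf2, an adaptor of these receptors, stood at 62.0, 86.2, 49.4 and 22.1 CPM in Control and from 69.2 to 194 CPM in KO libraries (log2 fold change 1.14, SE 0.43, edgeR adjusted p = 0.639). Of 14 cathepsin and lysosomal protease genes 12 were positive, with a median of 0.54 (1.07 without the 5 libraries, and between 0.13 without KO replicate 2 and 0.84 without Control replicate 3). Lgmn, the asparaginyl endopeptidase, stood at 1239 CPM in KO replicate 2 and at 18.8 to 107 CPM in the other KO libraries.

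Markers of blood, vessel and cortical cells were uneven too. Over 19 myeloid and dendritic markers the sum ranged from 1086 to 6308 CPM in Control and from 1126 to 14226 CPM in KO libraries, with 18 positive fold changes and a median of 0.90 (1.74 without the 5 libraries, and between 0.34 without KO replicate 2 and 1.36 without Control replicate 3). KO replicate 2 had the highest sum and Control replicate 3 came next. Laptm5, a lysosomal protein of haematopoietic cells, stood at 161, 519, 356 and 423 CPM in Control and from 346 to 913 CPM in KO libraries (log2 fold change 0.80, SE 0.28, edgeR adjusted p = 0.639). Of 8 B lineage markers 6 were positive, with a median of 1.23 (2.13 without the 5 libraries, and between 0.46 without KO replicate 2 and 1.62 without Control replicate 3) and sums of 156 to 340.3 CPM in Control and 80.8 to 1125 CPM in KO libraries. Dendritic and B cells also express MHC class II and cathepsins, and the part of these cells in the values above was not tested. All 11 endothelial markers had a negative fold change, beside 48.1% of all genes, and 6 were lower at an unadjusted p under 0.05, beside 4.58%. They had a median of -2.64 (-1.31 without the 5 libraries, and between -3.88 without KO replicate 4 and 0.44 without Control replicate 3), with 3 positive without the 5. Their sum was 97.0, 1316, 142 and 129 CPM in Control and 23.8 to 132 CPM in KO libraries. Of 14 thymocyte markers 11 were positive, or 3 without the 5 libraries, with a median of 0.19 (-1.17 without the 5 libraries, and between -0.43 without KO replicate 7 and 1.07 without Control replicate 5) and sums of 98.0 to 3123 CPM in Control and 88.5 to 3899.5 CPM in KO libraries. Of 11 cTEC genes 9 were positive, with a median of 0.79 (0.53 without the 5 libraries, and between 0.52 without Control replicate 4 and 0.96 without KO replicate 1) and sums of 521 to 1563 CPM in Control and 459 to 3247 CPM in KO libraries.

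SKI's own pathway held fold changes of both signs. Of 31 SKI and SMAD signalling genes 13 had a positive and 18 a negative fold change, and 0 had an unadjusted p under 0.05. They had a median of -0.17 (0.14 without the 5 libraries, and between -0.37 without KO replicate 1 and -0.11 without KO replicate 6), with 17 positive without the 5. Skil, the paralogue of Ski and itself a TGF-beta target, stood at 35.8, 26.9, 46.5 and 40.9 CPM in Control libraries. In KO replicates 1 to 7 it stood at 84.2, 44.7, 18.3, 42.9, 84.8, 89.8 and 109 CPM, where KO replicates 1, 5, 6 and 7 exceeded every Control library (log2 fold change 0.85, SE 0.76, edgeR adjusted p = 1). Smad7, the inhibitory SMAD, stood at 0 to 6.44 CPM in Control and 0 to 11.5 CPM in KO libraries (log2 fold change 0.34, SE 1.41). Smurf1, a ubiquitin ligase that targets SMADs, stood at 4.74 to 23.1 CPM in Control and 11.7 to 58.1 CPM in KO libraries (log2 fold change 1.38, SE 0.81, edgeR adjusted p = 0.795). Smad4, the common SMAD, had a log2 fold change of 0.91 (SE 0.54). Of 22 TGF-beta and BMP target genes 10 had a positive fold change, with a median of -0.092 (-0.036 without the 5 libraries, and between -0.29 without Control replicate 3 and 0.23 without Control replicate 1). Of 11 corepressor partners 3 were positive, with a median of -0.30 (-0.28 without the 5 libraries, and between -0.34 without KO replicate 7 and -0.024 without Control replicate 4). Ncor1, the nuclear receptor corepressor, stood at 151 to 346 CPM in Control and 117 to 329.9 CPM in KO libraries (log2 fold change -0.30, SE 0.31).

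Immature and basal medullary genes had 5 of 15 positive fold changes, or 9 without the 5 libraries, with a median of -0.14 (0.19 without the 5 libraries, and between -0.33 without KO replicate 1 and 0.10 without Control replicate 1). Krt17, a basal keratin, stood at 1074, 972, 511 and 362 CPM in Control libraries. KO replicates 1 to 7 stood at 1434, 1499.8, 2849, 1514, 226, 451 and 231 CPM, with the 4 early KO libraries above the Control range and KO replicates 5 and 7 below it (log2 fold change 0.68, SE 0.77). Plet1, a progenitor surface marker, had a log2 fold change of -1.08 (SE 0.997). Of 10 simple epithelial keratin and adhesion genes 3 were positive, or 5 without the 5 libraries, and Cdh1, which encodes E-cadherin, stood at 90.7 to 289 CPM in Control and 13.9 to 254 CPM in KO libraries (log2 fold change -1.16, SE 0.69). Proliferation genes had 11 of 20 positive fold changes, with a median of 0.085 (-2.21 without the 5 libraries, and between -0.32 without KO replicate 6 and 0.80 without Control replicate 5). Without KO replicates 6 and 7 their median was -1.43, without KO replicates 3, 4, 6 and 7 it was -2.29, and in both fits, as without the 5, 2 of 20 were positive. Of 17 immediate early genes 15 had a negative fold change, with a median of -0.30 (-0.32 without the 5 libraries, and between -0.60 without Control replicate 3 and -0.14 without Control replicate 5). Of 14 interferon-stimulated genes 12 were positive, or 9 without the 5 libraries, with a median of 0.26 (0.17 without the 5 libraries, and between 0.076 without KO replicate 7 and 0.36 without KO replicate 3). The interferon median was -0.31 in early libraries and 0.67 in late ones.

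The other mimetic programmes were uneven between libraries. Of 16 neuroendocrine-like genes 5 were lower at an unadjusted p under 0.05, beside 4.58% of all genes, with a median of -0.83 (-0.44 without the 5 libraries, and between -1.24 without KO replicate 1 and 0.32 without Control replicate 1). Their median was 0.56 in the late set and 0.098 in a fit of the 11 libraries alone. Chgb, a secretory granule protein, stood at 91.4, 0, 0.239 and 14.3 CPM in Control libraries and at no more than 2.35 CPM in KO libraries. Secretory airway-like genes had 9 of 11 positive fold changes, or 8 without the 5 libraries. Bpifa1, an airway surface protein, stood at 0, 28.0, 108 and 70.5 CPM in Control libraries. The 7 KO libraries stood at 12.9, 156, 436, 697, 5452, 10.4 and 43.2 CPM, with KO replicate 5 far above the rest (log2 fold change 4.23, SE 1.99, edgeR adjusted p = 0.678). The 11 microfold-like genes had a median of 0.19 (0.96 without the 5 libraries, and between -0.0597 without Control replicate 4 and 0.87 without Control replicate 3). Early libraries alone gave them 0.29 and late ones -0.46. The 26 keratinocyte-like genes had a median of 0.057 (-0.38 without the 5 libraries, and between -0.29 without KO replicate 3 and 0.24 without KO replicate 6). Early libraries alone gave them 0.75 and late ones -1.40. The differences between sets were not tested.

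**Figure D5:**
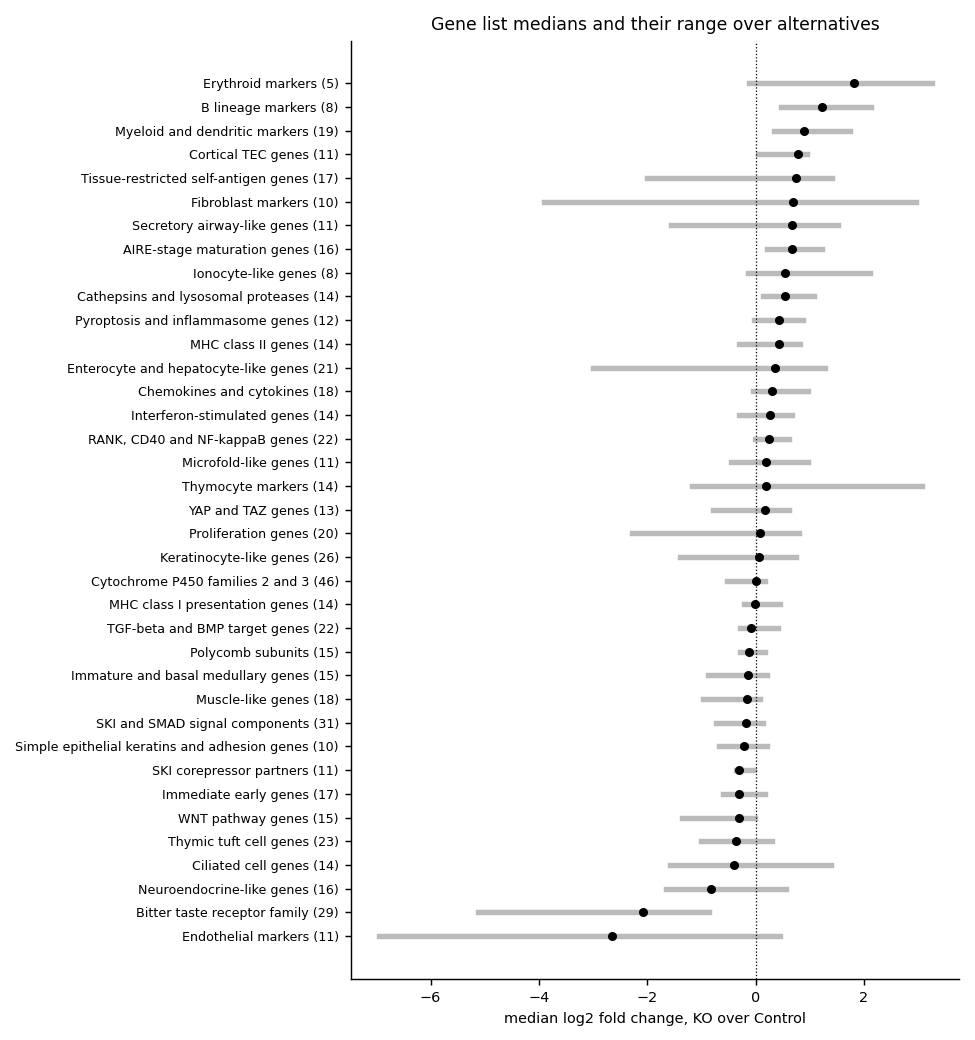
Median log2 fold change of KO over Control for 37 gene lists (points), with bars for the range of that median over 29 alternative fits. The bars of bitter taste receptors, SKI corepressor partners and WNT pathway genes lie wholly below 0, and the endothelial bar crosses it. Those of AIRE-stage maturation, cathepsin, cTEC, B lineage and myeloid genes lie wholly above 0.

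The late set alone gave 5 genes past an edgeR adjusted p of 0.05, all higher in KO libraries and named after their values were seen: Mmp25, Glipr2, Anxa3, Ankrd35 and Phf11b. The late KO libraries include KO replicates 6 and 7, which correlated better with cTEC, and their part in these calls was not tested. Anxa3, an annexin, stood at 91.4 and 63.8 CPM in late Control libraries and at 389, 669.7 and 586 CPM in late KO libraries (log2 fold change 2.81, SE 0.28, edgeR adjusted p = 0.000158). In the early set it stood at 84.5 and 358 CPM in Control and at 61.8 to 194 CPM in KO libraries (log2 fold change -0.70). Mmp25, a membrane-anchored matrix metalloproteinase, had no count in late Control libraries and stood at 15.1, 26.9 and 41.2 CPM in late KO libraries. Over both sets none of the 5 passed with edgeR or limma voom, while Mmp25 passed with DESeq2 (adjusted p = 0.00354).

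Whether the KO effect differed from that in the neighbouring subsets was tested as an interaction in the same fit. Libraries of different subsets may come from the same mouse, which the labels do not say, and the fit treated them as independent. Against 11 MHCII-high mTEC libraries 0 genes passed an edgeR adjusted p of 0.05, with 1421 (6.17%) at an unadjusted p under 0.05, 2.93% higher and 3.24% lower. Against 12 cTEC libraries 0 passed, with 1701 (7.38%) at such a p, 4.3% higher and 3.09% lower. DESeq2 called 139 and 373 genes and limma 4 and 24. The KO effect on Eed was 1.37 higher on the log2 scale than in MHCII-high mTEC (edgeR adjusted p = 0.571), and that on Strn4 was 2.18 higher than in cTEC (edgeR adjusted p = 0.453). The bitter receptor median was -2.07 here and -0.52 in MHCII-high mTEC, and 3 of the 29 members had an unadjusted interaction p under 0.05. The tuft median was -0.36 here and -1.27 in MHCII-high mTEC, with 0 of 23 members at such a p.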

How the data were processed

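Full-length cDNA from sorted mouse thymic epithelial cells was amplified with SMART-Seq v4 and made into Nextera XT libraries, per the labels' protocols. The authors deposited raw counts of reads per Ensembl gene, not normalised, for 53465 genes. Tools that the submitters' processing notes list are FastQC 0.11.3, Picard 1.134, SAMtools 1.2 and HTSeq 0.4.1, with build GRCm38. The sources used here do not name the aligner, annotation or strand setting, so overlapping and antisense genes may share reads. GENCODE M21 gave symbols for 53360 identifiers. Reads carry no molecular identifiers, so floors cover counting error only.

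Members, gene lists and the rule for named genes were chosen with earlier results of these data known. One edgeR 4.0.16 quasi-likelihood model (R 4.3.3, TMM factors, filterByExpr with minimum count 10 and minimum total 15) was fitted to 40 libraries of 9 groups, leaving out libraries under 100000 counts. Benjamini-Hochberg adjustment covered 23040 genes. CPM used TMM-normalised library sizes. Exact permutation tests used SciPy 1.17.1. The test was checked on simulated data. Named were Ski, Skil, Smad7, Krt5, Gnat3, Gp2, Aire, Fezf2, Cd80, Ccl21a and Foxn1, the 8 genes of smallest p per direction whose higher group had a median of 10 CPM or more, and members of each list by mean CPM and by p. List members other than those named are given by count and range. Alternatives were DESeq2 1.42.0, limma 3.58.1, other filters, factors and covariates, each library set, and libraries left out.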

Additional observations from a re-analysis of the deposited data

Results flagged for a closer look

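In 34 of 201 groups of values tested, 1 library stood apart from its group, where the nominal rate would be about 1 in 20. Of the 34, 15 were in Control replicate 3. Some groups held genes named after their values were seen, and some genes also entered a summed level. Each group held few values, some of them at or near 0. The 34 of 201 therefore cannot be set against the nominal rate. Values under 1 CPM below, such as those of Mmp25 and Cldn5, rest on few reads. Control replicate 3 lay above the other Control libraries in the summed level of AIRE-stage maturation genes at 3916 CPM (nearest 1009.9), RANK, CD40 and NF-kappaB genes at 4687 CPM (nearest 3146), microfold-like genes at 9117 CPM (nearest 4369), enterocyte and hepatocyte-like genes at 9492 CPM (nearest 2653), myeloid and dendritic markers at 6308 CPM (nearest 1628) and endothelial markers at 1316 CPM (nearest 142). Control replicate 3 lay below the other Control libraries in the summed level of simple epithelial keratins and adhesion genes at 4344 CPM (nearest 6540.0). Control replicate 3 lay above the other Control libraries in the level of Hdc at 429 CPM (nearest 37.5), Lgmn at 192 CPM (nearest 28.9), Cldn5 at 204 CPM (nearest 17.2), Emcn at 64.6 CPM (nearest 0.260), Mmp25 at 0.226 CPM (nearest 0), Glipr2 at 665 CPM (nearest 78.4), Anxa3 at 358 CPM (nearest 91.4) and Ankrd35 at 57.1 CPM (nearest 5.39). KO replicate 5 lay above the other KO libraries in the summed level of secretory airway-like genes at 7165 CPM (nearest 952). KO replicate 5 lay above the other KO libraries in the level of Mfap3l at 1.01 CPM (nearest 0.348), Cnr1 at 0.838 CPM (nearest 0), Tas2r108 at 117 CPM (nearest 37.2), Cldn5 at 0.168 CPM (nearest 0) and Bpifa1 at 5452 CPM (nearest 697). Control replicate 4 lay above the other Control libraries in the summed level of B lineage markers at 340.3 CPM (nearest 180.3). KO replicate 2 lay above the other KO libraries in the summed level of myeloid and dendritic markers at 14226 CPM (nearest 4310.4). KO replicate 2 lay above the other KO libraries in the level of Strn4 at 157 CPM (nearest 95.0) and Lgmn at 1239 CPM (nearest 107). KO replicate 4 lay above the other KO libraries in the level of Jpt2 at 366 CPM (nearest 192) and Ap4s1 at 112 CPM (nearest 77.3). KO replicate 1 lay above the other KO libraries in the level of Ndrg4 at 0.615 CPM (nearest 0.209) and Itga6 at 298 CPM (nearest 64.5). Control replicate 5 lay above the other Control libraries in the level of Cyp3a11 at 180.3 CPM (nearest 6.44). Control replicate 1 lay above the other Control libraries in the level of Neurod1 at 104 CPM (nearest 2.63), Vwa5b2 at 15.4 CPM (nearest 2.63), Itga6 at 291 CPM (nearest 92.8) and Chgb at 91.4 CPM (nearest 14.3).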

How the results depend on the processing

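Over 29 alternative fits, the number of genes past an adjusted p of 0.05 stayed at 0 in edgeR except for 5 in the late set alone. DESeq2 gave 229 genes for KO against Control, 139 for the difference from MHCII-high mTEC and 373 for that from cTEC, and limma voom 54, 4 and 24. Ski (log2 fold change -2.36 to -0.74) and Gnat3 (-2.76 to -0.10) kept their sign. The cause of the reversals that follow was not tested. Fits without libraries nearer to another subset were chosen after seeing the data. In the late set alone the log2 fold change was -1.13 for Krt5, -0.92 for Fezf2, -2.95 for Foxn1 and -0.54 for Krt17. In the early set alone it was -0.17 for Glipr2, -0.70 for Anxa3 and -2.05 for Phf11b. With the library set as a term, in 40 and in 11 libraries, it was -0.32 and -0.26 for Krt5, -0.051 and -0.35 for Fezf2, and -0.73 and -0.40 for Phf11b, and in 11 libraries -0.65 for Foxn1. With limma voom it was -0.53 for Krt5, -0.26 for Smad7, -0.64 for Fezf2 and -0.35 for Krt17. With detected genes as a covariate Fezf2 was at -0.23. Without KO replicates 3 and 4 it was -1.19 for Aire, -0.996 for Fezf2 and -1.15 for Hdc. Without KO replicates 6 and 7 it was -0.049 for Smad7 and -0.76 for Phf11b. Without KO replicates 3, 4, 6 and 7 it was 0.025 for Gp2, -0.25 for Smad7, -0.83 for Aire, -0.32 for Fezf2, -0.56 for Hdc, 0.016 for Itga6, -0.19 for Glipr2 and -0.40 for Phf11b. Without Control replicate 3 and KO replicates 3 and 4 Smad7 was at -0.052. Without Control replicate 3 and KO replicates 3, 4, 6 and 7 it was -0.67 for Smad7 and -0.11 for Gtpbp1. Leaving out each library in turn gave -0.0701 to 1.04 for Krt5, -1.07 to 0.025 for Gp2, -0.069 to 0.65 for Smad7 and -0.30 to 1.39 for Fezf2. Of 1763 values of 62 other named genes, 1701 kept their sign and side of the threshold, 35 changed sign and 27 passed it. No paired analysis was possible because the labels give KO and Control libraries no shared replicate number and tie no library to a mouse. The replicate numbers used here follow the order of library numbers within each group and pair no libraries. At 3217251 to 6098199 counts per library, small differences in genes of few counts could not be detected.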
